A study of Mus musculus with 6 samples.

Results

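The leukocyte adhesion molecules of endothelium were described in the RNA of whole aortas by 9 genes, which were chosen by name and matched to the deposited table by NCBI gene identifier, and 9 of the 9 were found among its 18191 genes. RNA was measured in 3 libraries of wild type (WT) and 3 libraries of heterozygous Npr1 knockout (Npr1+/-) male mice, in which CRISPR-Cas9 had disrupted 1 copy of *Npr1* (natriuretic peptide receptor 1). The wild type mice carry both copies, no treatment is given for either genotype, and age and strain are not given in the sources used here. The authors' table calls the heterozygous columns knockdown, and they were taken as the 3 libraries of the other genotype with the same numbers. Nothing in the labels says how many mice gave each library, so that the p-values measure the spread between these libraries.

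Circulating leukocytes reach the vessel wall in steps. Selectins on the endothelium catch and slow the cells, members of the immunoglobulin superfamily such as ICAM-1 and VCAM-1 bind leukocyte integrins and hold them, and junctional molecules such as the JAM family and the CD99 family guide them between endothelial cells. Inflammatory cytokines acting through NF-κB are known to induce several of these genes, and a quiescent aorta expresses them weakly. The aortic wall consists mostly of smooth muscle and adventitia with a single layer of endothelium, so that *Pecam1*, which encodes CD31, and *Cdh5*, which encodes VE-cadherin, were used as endothelial reference genes.

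Promoters of 5 of the 9 members were in the RefSeq table used here (*Icam1*, *Sele*, *Selp*, *F11r* and *Cd99l2*), and those of *Vcam1*, *Selplg*, *Jam2* and *Jam3* were not. The 250 bases before the start site are shown for the 3 genes that encode inducible capture or arrest molecules, from RefSeq on GRCm38.p6, all on the plus strand, at chr9:21015690-21015939 for *Icam1*, chr1:164047984-164048233 for *Sele* and chr1:164115014-164115263 for *Selp*. Capitals mark matches to GGNNNTTCC on either strand, a core shared by many NF-κB sites.
Icam1: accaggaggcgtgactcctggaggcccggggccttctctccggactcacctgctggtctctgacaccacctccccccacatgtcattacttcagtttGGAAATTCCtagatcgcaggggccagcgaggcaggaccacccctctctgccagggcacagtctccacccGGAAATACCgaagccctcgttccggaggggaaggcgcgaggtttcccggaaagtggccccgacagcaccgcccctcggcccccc
Sele: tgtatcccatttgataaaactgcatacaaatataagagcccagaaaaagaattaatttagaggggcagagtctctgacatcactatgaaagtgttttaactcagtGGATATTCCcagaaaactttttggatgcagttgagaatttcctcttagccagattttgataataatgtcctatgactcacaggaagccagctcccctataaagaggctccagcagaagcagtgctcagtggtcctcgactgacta
Selp: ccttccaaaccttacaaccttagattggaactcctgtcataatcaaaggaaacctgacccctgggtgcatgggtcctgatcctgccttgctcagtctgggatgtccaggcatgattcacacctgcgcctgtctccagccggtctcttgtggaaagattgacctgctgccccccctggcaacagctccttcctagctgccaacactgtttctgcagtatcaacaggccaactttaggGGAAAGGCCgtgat

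The *Icam1* window held 2 matches to this core, starting 153 and 84 bases before the start site, and the windows of *Sele* and *Selp* held 1 each, starting 145 and 14 bases before it. The core was found in 15.7% of the 32851 promoter windows of this length, so that a match is a description of the letters only. The letters TTCNNNGAA, the core of a STAT site, were found in the windows of *Icam1* (at 42 bases) and *Sele* (at 140 bases, overlapping the NF-κB core there) and in 7.02% of all windows. TATAAA was found in that of *Sele* (at 49 bases), and in 12.4% of all windows. The windows of *F11r* and *Cd99l2* held neither core. Those of *Icam1*, *F11r* and *Cd99l2* held 1, 1 and 2 matches to GGGCGG, the GC box, which was found in 32.7% of all windows. The stricter NF-κB consensus was found in 7.25% of all windows and in none of the 5 members. Both strands were searched in each case.

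The estimated counts summed to between 13510970 and 16664343 per library. The libraries numbered 1 of both genotypes stood apart on the first principal component (59.3% of the variance), with a summed FPKM (fragment counts scaled by transcript length and library size) of 6 fat cell markers of 2720 and 3414, against 431 to 959 in the other 4, and of 6 smooth muscle markers of 8451 and 4905, against 13318 to 14855. The library Npr1+/- 1 also held neuron RNA, with a summed FPKM of 8 neuron markers of 312, against at most 82.0 in the other 5 libraries. *Npr1* itself had an FPKM of 112, 153 and 152 across WT 1 to 3, against 70.35, 110 and 133 across Npr1+/- 1 to 3, so that the genotypes overlapped (log2 fold change -0.41, standard error 0.27). In counts scaled to library size it was lower within each replicate number, at 65.2%, 73.9% and 83.2% of WT, as were 16.9% of all tested genes. With the number as a block in the fit it was at -0.44 (standard error 0.15, edgeR unadjusted p = 0.0221, adjusted p = 0.311).

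**Figure D1:**
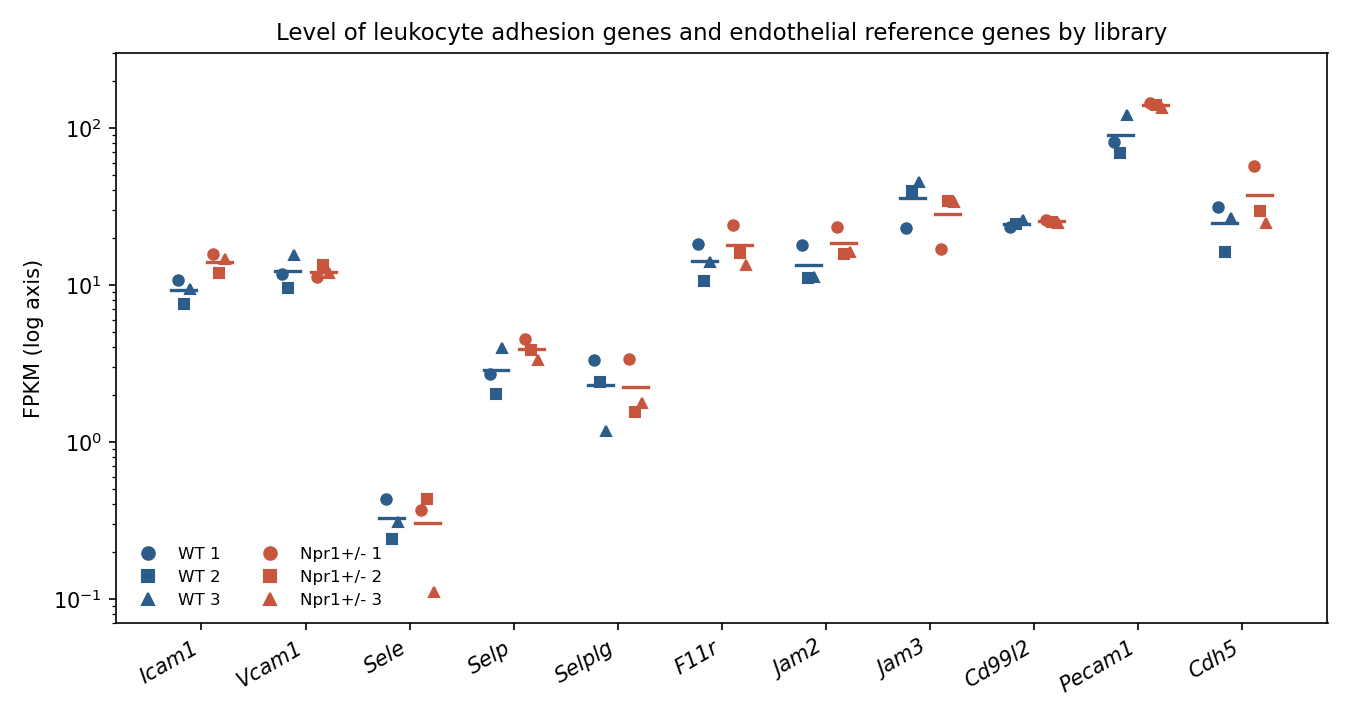
FPKM on a log axis of the 9 adhesion genes and the reference genes *Pecam1* and *Cdh5*, with 1 point per library (colour for genotype, shape for replicate number) and a bar at the mean of each genotype. *Icam1* and *Pecam1* have all 3 Npr1+/- libraries above the 3 WT libraries, and the other genes overlap.

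In WT aortas the members spanned about 2 orders of level on the FPKM scale, which is per length of transcript. *Jam3* had the highest mean with an FPKM of 35.9 ± 11.5 (SD, n = 3), followed by *Cd99l2* at 24.5 ± 1.38 (SD, n = 3). Their ranges overlapped, since *Jam3* was at 22.96 and *Cd99l2* at 23.21 in WT 1. *F11r*, *Jam2*, *Vcam1* and *Icam1* followed with means of 14.3, 13.4, 12.3 and 9.22, and neighbours in this order overlapped in their ranges. *Selp* and *Selplg* were lower, at 2.89 and 2.31, and also overlapped with each other. *Sele* was last at 0.327 ± 0.0961 (SD, n = 3), and its range was apart from that of *Selplg*. For comparison, *Pecam1* was at 90.8 and *Cdh5* at 24.7. In Npr1+/- aortas the order of the means was the same at the top and the bottom, with *Jam3* at 28.3 and *Sele* at 0.303. In Npr1+/- 1, however, *Jam3* (16.9) was below *Cd99l2*, *F11r* and *Jam2* (25.9, 24.2 and 23.5). *Icam1* stood above *Vcam1* by mean (14.1 against 12.1), with overlapping ranges.

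The question of the comparison was whether the loss of 1 copy of *Npr1* goes with a change of these adhesion genes in the aorta. *Icam1* was the member that differed most. It was higher in each of the 3 Npr1+/- libraries than in any WT library, at 154% of the WT mean in normalized CPM (counts scaled to library size). *Pecam1* and *Cdh5* were at 153% and 152% of the WT mean. *Pecam1* was also higher in each Npr1+/- library than in any WT library, while *Cdh5* overlapped between the genotypes. None of *Icam1*, *Pecam1* and *Cdh5* passed the test after adjustment (edgeR adjusted p = 0.999 for each). *Vcam1*, *Selplg* and *Cd99l2* were at 99.0%, 102% and 104% of the WT mean.

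A call needed both an adjusted p below 0.05 and a log2 fold change of 0.5 or more in either direction. By this rule edgeR's quasi-likelihood test called 0 of the 9 members and 0 of all 13938 genes tested (0% called). At an unadjusted p below 0.05 the same test found 1 member, *Icam1*, which was higher, against 2.96% of all tested genes (1.88% higher and 1.08% lower). DESeq2 called 0 members, against 0.0832% of 18033 genes, and found 1 at an unadjusted p below 0.05, against 3.24% (2.31% higher and 0.932% lower). The log2 fold change of edgeR was positive for 7 of 9 members, against 51.6% of tested genes (54.2% with DESeq2), with a median of 0.17 against 0.01. The groups were apart with Npr1+/- higher for 1 member, against 3.9% of tested genes, and apart with Npr1+/- lower for 0, against 3.58%. All 9 members passed the filter on low counts.

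Libraries of the same number deviated together, but numbers 2 and 3 were not told apart by this check (WT 3 correlated at 0.44 with Npr1+/- 2 and at 0.24 with Npr1+/- 3). With the number as a block the count at an unadjusted p under 0.05 went from 1 to 3 members (*Icam1*, *Jam2* and *Jam3*), against 12.4% of tested genes (7.36% higher and 5.09% lower). In this fit 8 of 9 members had a positive log2 fold change, against 51.1% of tested genes. Still 0 members were called by edgeR with the block, as were 0 of all tested genes (0% called). Without both libraries numbered 1, an alternative chosen after the data were seen, the members at an unadjusted p under 0.05 were again 3 and 0 were called, against 11.5% (6.43% higher and 5.12% lower) and 0.00717% of tested genes. In that fit 5 of 9 members had a positive log2 fold change, against 51% of tested genes.

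**Figure D2:**
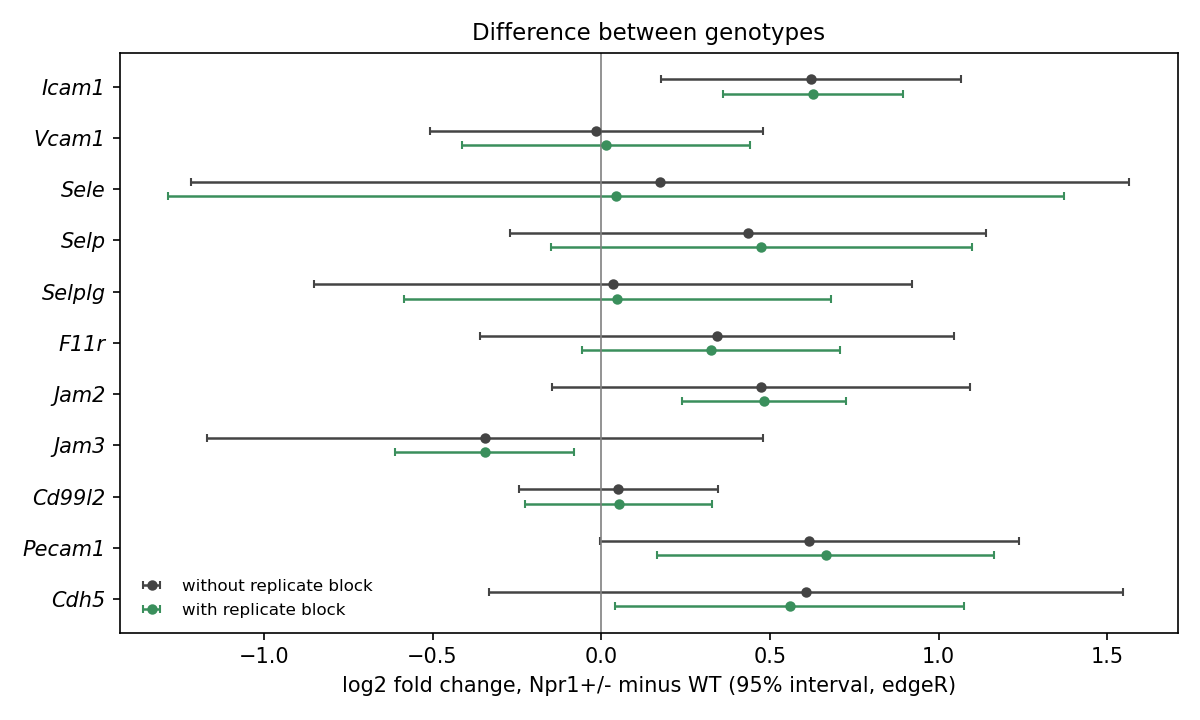
Log2 fold change of Npr1+/- against WT from edgeR with its 95% interval, for the 9 members and the reference genes, without (grey) and with (green) the replicate number as a block. The interval of *Icam1* lies above 0 in both fits. Those of *Jam2*, *Jam3* and the reference genes *Pecam1* and *Cdh5* exclude 0 only with the block. Those of *Vcam1*, *Sele*, *Selp*, *Selplg*, *F11r* and *Cd99l2* include 0 in both.

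*Icam1* (NCBI gene 15894, chromosome 9 from 21015985 to 21028817, plus strand, GRCm38) encodes ICAM-1, the endothelial ligand of the leukocyte integrins LFA-1 and Mac-1. Its FPKM was 10.8, 7.53 and 9.37 across WT 1 to 3, against 15.8, 11.95 and 14.6 across Npr1+/- 1 to 3, on 304 to 581 counts. Each Npr1+/- library was above the highest WT library, and the gap between 10.8 and 11.95 was smaller than the SD of either genotype. WT aortas had a mean of 9.22 ± 1.62 (SD, n = 3), and Npr1+/- aortas had 14.1 ± 1.95 (SD, n = 3).

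The log2 fold change of *Icam1* was 0.62 (standard error 0.19, 95% interval 0.18 to 1.07, edgeR unadjusted p = 0.0132, Benjamini-Hochberg adjusted p = 0.999). By its unadjusted p it was at rank 91 of the 13938 genes tested. Within the replicate numbers 1, 2 and 3, the Npr1+/- library had 153%, 164% and 147% of the WT level. With the block it was 0.63 (standard error 0.11, edgeR unadjusted p = 0.00074, adjusted p = 0.121), and the adjusted p ranged from 0.121 to 1 over all alternatives tried. It stayed between 0.48 and 0.74 as single libraries were left out, so that no single library set its size. Permuting the libraries exactly (two-sided, log2 CPM) gave p = 0.1, the smallest that 3 libraries against 3 allow.

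*Vcam1* (NCBI gene 22329, chromosome 3 from 116109949 to 116129688, minus strand) encodes VCAM-1, the ligand of the integrin VLA-4 on monocytes and lymphocytes. Its FPKM was 11.8, 9.60 and 15.5 across WT 1 to 3, against 11.2, 13.3 and 11.8 across Npr1+/- 1 to 3. The 3 Npr1+/- libraries lay within the range of the WT libraries. Its log2 fold change was -0.01 (standard error 0.21), and its 95% interval of -0.51 to 0.48 allows a fold from 0.704 to 1.39. Its direction within the numbers differed, at 99.7%, 143% and 72.4% of the WT level.

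*Sele* (NCBI gene 20339, chromosome 1 from 164048234 to 164057677) and *Selp* (NCBI gene 20344, chromosome 1 from 164115264 to 164150026) are neighbours on the plus strand and encode E-selectin and P-selectin, the endothelial molecules that catch rolling leukocytes. *Sele* was near the limit of detection, with an FPKM of 0.43, 0.24 and 0.31 in WT, against 0.37, 0.43 and 0.11 across Npr1+/- 1 to 3. These rest on 6.03 to 28 counts, and the library with the fewest was Npr1+/- 3. The 95% interval of its fold ran from 0.43 to 2.96, so that these libraries allow any fold in this range. Its counts were 16.4 ± 3.32 in WT and 18.7 ± 11.4 in Npr1+/- libraries (SD, n = 3).

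*Selp* had an FPKM of 2.71, 2.02 and 3.94 across WT 1 to 3, against 4.51, 3.87 and 3.30 across Npr1+/- 1 to 3, on 111 to 227 counts. The groups overlapped, since WT 3 was above Npr1+/- 2 and 3. On the log2 scale the difference was 0.43 (standard error 0.30, 95% interval -0.27 to 1.14, edgeR unadjusted p = 0.187). It was 0.74 without WT 3 (edgeR unadjusted p = 0.0372), 0.22 without WT 2, 0.28 without Npr1+/- 1 and 0.24 without both libraries numbered 1. P-selectin is also made by megakaryocytes and carried by platelets, and the 7 platelet markers had a summed FPKM of 46.9 to 136 in WT and of 32.5 to 99.2 in Npr1+/- libraries. All 7 of these markers had a negative log2 fold change (median -0.53), and 0 of them had an unadjusted p under 0.05.

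*Selplg* (NCBI gene 20345, chromosome 5 from 113818536 to 113832644, minus strand) encodes PSGL-1, the ligand of the selectins, which is carried mainly by leukocytes. Its FPKM was 3.33, 2.42 and 1.17 across WT 1 to 3, against 3.37, 1.54 and 1.76 across Npr1+/- 1 to 3. The genotypes overlapped across nearly their whole range, and both libraries numbered 1 were the highest of their genotype. The log2 fold change was 0.03 (standard error 0.37, 95% interval -0.85 to 0.92).

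Set against the 14 leukocyte markers, a ratio chosen after the values were seen, *Selplg* had 7.39, 8.64 and 7.05 FPKM per 1000 summed FPKM across WT 1 to 3, against 11.1, 7.48 and 8.15 across Npr1+/- 1 to 3. The highest library was 1.57 times the lowest in this ratio, and 2.88 times in FPKM alone. In WT libraries *Selplg* and the summed leukocyte markers (450, 280 and 166 in WT 1 to 3) were in the same order.

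The junctional adhesion molecules bind each other and leukocyte integrins at endothelial junctions. *F11r* (NCBI gene 16456, chromosome 1 from 171437535 to 171464603, plus strand) encodes JAM-A, which is found on endothelium, epithelium, platelets and leukocytes. Its FPKM was 18.1, 10.7 and 14.0 across WT 1 to 3, against 24.2, 16.05 and 13.35 across Npr1+/- 1 to 3. The genotypes overlapped, and Npr1+/- 3 was below WT 3. Its log2 fold change was 0.34 (standard error 0.29, edgeR unadjusted p = 0.283), and it was 0.02 without Npr1+/- 1, 0.16 without WT 2, 0.53 without Npr1+/- 3 and 0.54 without WT 1.

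*Jam2* (NCBI gene 67374, chromosome 16 from 84774123 to 84825928, plus strand) encodes JAM-B, which is known from venous and lymphatic endothelium among other cells. Its FPKM was 17.91, 11 and 11.15 across WT 1 to 3, against 23.5, 15.7 and 16.1 across Npr1+/- 1 to 3. The groups overlapped only because WT 1 lay above Npr1+/- 2 and 3, and within the numbers the Npr1+/- library had 134%, 147% and 139% of the WT level. It was thus higher within each number, as were *Icam1* and 17.5% of all tested genes. On the log2 scale the difference was 0.47 (standard error 0.26, edgeR unadjusted p = 0.112), and 0.48 with the block (standard error 0.10, edgeR unadjusted p = 0.00199, adjusted p = 0.143). Without Npr1+/- 1 it was 0.23 and without WT 1 it was 0.74.

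*Jam3* (NCBI gene 83964, chromosome 9 from 27097384 to 27155421, minus strand) encodes JAM-C, which is expressed by endothelium, smooth muscle and other cells and binds both JAM-B and Mac-1. Its FPKM was 23.0, 39.85 and 45.0 across WT 1 to 3, against 16.9, 34.3 and 33.75 across Npr1+/- 1 to 3. It was lower in the Npr1+/- library of each number, at 77.1%, 88.9% and 71.1% of the WT level, as were 16.9% of all tested genes, while the groups overlapped through the low value of WT 1. The log2 fold change was -0.34 (standard error 0.35, edgeR unadjusted p = 0.353), and -0.35 with the block (standard error 0.11, edgeR unadjusted p = 0.0172, adjusted p = 0.286). It was -0.59 without WT 1, -0.14 without WT 3, -0.10 without Npr1+/- 1 and -0.52 without Npr1+/- 2.

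*Jam3* was lowest in the library numbered 1 of each genotype, where the smooth muscle markers were also lowest. Per 1000 summed FPKM of the 6 smooth muscle markers, a ratio chosen after the values were seen, it was at 2.72, 2.83 and 3.03 across WT 1 to 3, against 3.45, 2.58 and 2.39 across Npr1+/- 1 to 3. In this ratio the genotypes overlapped, and Npr1+/- 1 was the highest library. The highest library was 1.44 times the lowest, against 2.66 times in FPKM.

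*Cd99l2* (NCBI gene 171486, X chromosome from 71420060 to 71492849, minus strand) encodes CD99-like 2, which takes part in the passage of leukocytes through endothelium. It was the steadiest member, with an FPKM of 23.2, 24.3 and 25.95 across WT 1 to 3, against 25.9, 25.3 and 24.8 across Npr1+/- 1 to 3. Its coefficient of variation in CPM was 8.30% in WT and 5.64% in Npr1+/- aortas, where those of the other members lay between 9.04% and 60.5%. Its log2 fold change was 0.05 (standard error 0.12), and the 95% interval of its fold ran from 0.84 to 1.27.

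Some limits come from the counting. The estimated counts of *Sele*, *Selplg*, *F11r* and *Cd99l2* are not whole in at least 1 library, and those of *Selplg* and *F11r* in all 6. These counts are per gene, so that some reads were not assigned wholly to these genes. Exons of *Icam1*, *Vcam1*, *Selp*, *Jam3* and *Cd99l2* overlap noncoding genes on the other strand in GENCODE M21, and reads of these could not be told apart if the libraries do not keep the strand, which the sources used here do not state.

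*Pecam1* had an FPKM of 81.9, 69.7 and 121 across WT 1 to 3, against 143, 140 and 134 across Npr1+/- 1 to 3, without overlap between the genotypes (log2 fold change 0.62, standard error 0.26, edgeR unadjusted p = 0.0514, adjusted p = 0.999). In this direction 3.9% of all tested genes were without overlap. *Cdh5* had 31.3, 16.3 and 26.7 across WT 1 to 3, against 57.0, 29.6 and 24.9 across Npr1+/- 1 to 3, with overlap (log2 fold change 0.61, standard error 0.39). Npr1+/- 1 decided the value of *Cdh5*, which was 0.12 without it, where *Icam1* was 0.49, and it was 0.37 without WT 2. *Pecam1* ranged from 0.44 to 0.89 as single libraries were left out. With the block *Pecam1* was at 0.67 (standard error 0.21, edgeR unadjusted p = 0.0159, adjusted p = 0.278). *Cdh5* was then at 0.56 (standard error 0.22, edgeR unadjusted p = 0.0376, adjusted p = 0.363). Without both libraries numbered 1 *Pecam1* and *Cdh5* were at 0.49 and 0.32, and *Icam1* was at 0.63. In RNA of a whole tissue, fewer or more cells of a type and less or more RNA per cell cannot be told apart.

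Set against the geometric mean of *Pecam1* and *Cdh5*, *Icam1* was at 21.3%, 22.4% and 16.5% across WT 1 to 3, against 17.5%, 18.6% and 25.2% across Npr1+/- 1 to 3. The genotypes overlapped, and the difference of the log2 means was 0.02, with SDs of 0.23 in WT and 0.28 in Npr1+/- (exact two-sided permutation test, p = 1). Relative to these genes *Icam1* was thus higher within number 3 and lower within numbers 1 and 2. With the mean of the 14 other endothelial markers as reference the difference was 0.09, and with *Pecam1* alone it was -0.04.

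For the other 8 members the level relative to *Pecam1* and *Cdh5* was lower in Npr1+/- aortas, by -0.12 to -0.96 on the log2 scale. This has to be read against all genes, since 93.6% of the tested genes were lower by this measure, with a median difference of -0.60, against -0.55 for the 9 members. *Vcam1* went from 23.3%, 28.5% and 27.3% in WT 1 to 3 to 12.4%, 20.7% and 20.5% in Npr1+/- 1 to 3 (log2 difference -0.59), and *Cd99l2* from 45.8%, 72.1% and 45.8% to 28.7%, 39.2% and 43.0% (log2 difference -0.55). Both were apart between the genotypes, as were 22.8% of the tested genes in this direction (exact two-sided permutation test, p = 0.1 for each, the smallest possible). Neither was apart with *Cdh5* alone as reference (exact permutation p = 0.3 and 0.5) or with the 14 other endothelial markers (exact permutation p = 0.3 for both). The difference of *Vcam1* was -0.35 without Npr1+/- 1, and that of *Cd99l2* was -0.33 without WT 2. *Selp* was at 5.37%, 6.03% and 6.96% in WT and 5.00%, 6.02% and 5.73% in Npr1+/- 1 to 3 (log2 difference -0.13). *Jam2* had a log2 difference of -0.12. *Sele* and *Jam3* had -0.87 and -0.96, and both moved with single libraries, *Sele* from -1.27 to -0.41 (without Npr1+/- 2 and without Npr1+/- 3) and *Jam3* from -1.32 to -0.43 (without WT 1 and without Npr1+/- 1).

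**Figure D3:**
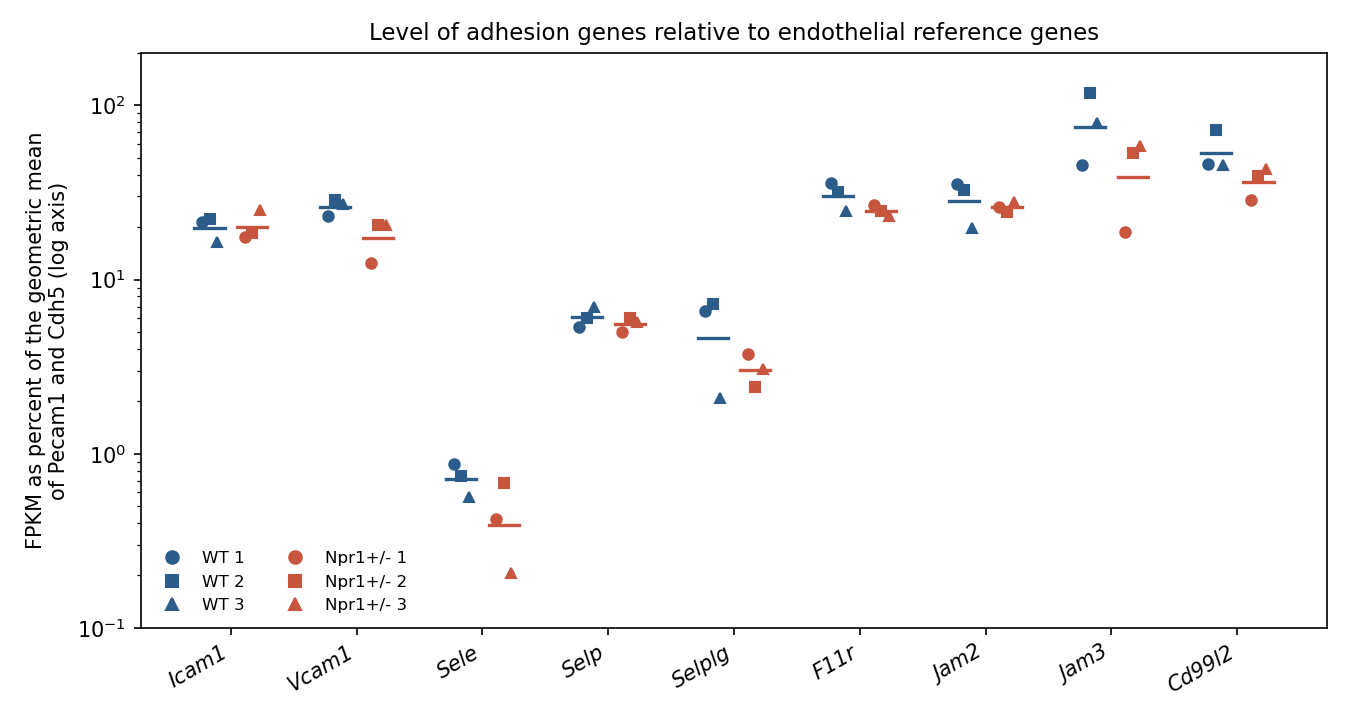
FPKM of each member as a percent of the geometric mean of *Pecam1* and *Cdh5* in the same library, on a log axis, with 1 point per library and a bar at the geometric mean of each genotype. *Icam1* overlaps between the genotypes (16.5% to 22.4% in WT and 17.5% to 25.2% in Npr1+/-), while *Vcam1* and *Cd99l2* have the Npr1+/- libraries below the WT libraries with this reference, but not with *Cdh5* alone or the 14 other endothelial markers.

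Of the 14 endothelial markers other than the reference genes, 13 had a positive log2 fold change, with a median of 0.58 and a range from -0.32 to 1.195. At an unadjusted p under 0.05 from edgeR 6 were higher and 0 lower, against 1.88% and 1.08% of all tested genes, and 0 were called. With the replicate block 9 were higher and 1 lower, against 7.36% and 5.09% of all tested genes. The gene with a negative value was *Erg*, an endothelial transcription factor, named after its values were seen. The summed FPKM of the 14 markers was 186 to 284 in WT and 289 to 430 in Npr1+/- libraries, without overlap. The gap between WT 1 (284) and Npr1+/- 3 (289) was smaller than the SD of either genotype (49.2 in WT and 78.3 in Npr1+/-). The highest sum was that of Npr1+/- 1, and Npr1+/- 2 was at 301. *Nos3*, the endothelial nitric oxide synthase, had the smallest p of these (13.0 ± 2.20 in WT and 29.7 ± 3.68 FPKM in Npr1+/- aortas, SD, n = 3), with a log2 fold change of 1.195 and an adjusted p of 0.999 from edgeR, and it was called by DESeq2. *Egfl7*, a factor secreted by endothelium, had 28.3 ± 6.10 in WT and 43.6 ± 5.44 FPKM in Npr1+/- aortas (SD, n = 3) and a log2 fold change of 0.61. *Tie1*, an endothelial receptor, was at 0.69. *Eng*, which had the highest FPKM of this list (means of 49.3 in WT and 57.6 in Npr1+/- aortas), was at 0.24. *Esam* and *Emcn* were at 0.55 and 0.99. The genotypes overlapped for *Eng*, *Esam* and *Emcn*.

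Among the 20 tested genes of endothelial adhesion and transmigration outside the members, 11 had a positive and 9 a negative log2 fold change (median 0.07). At an unadjusted p under 0.05 from edgeR, 5 were higher and 1 was lower, against 1.88% and 1.08% of all tested genes, and 0 were called. With the replicate block these were 6 and 3, against 7.36% and 5.09% of all tested genes. *Emcn*, *Esam* and *Vwf* are also among the endothelial markers above, so that the lists share these genes. *Icam2*, a second integrin ligand that endothelium expresses without stimulation, had an FPKM of 11.2, 8.64 and 14.4 across WT 1 to 3, against 18.6, 21.6 and 20.7 across Npr1+/- 1 to 3 (log2 fold change 0.83, standard error 0.22, edgeR unadjusted p = 0.00754, adjusted p = 0.999). *Plvap*, the diaphragm protein of endothelial fenestrae and caveolae, *Vwf*, the von Willebrand factor, and *Podxl*, a sialomucin, were also higher in all 3 Npr1+/- libraries, with log2 fold changes of 1.07, 0.90 and 0.66. Groups were apart with Npr1+/- higher for 3.9% of all tested genes, and lower for 3.58%. The genes given here were named for their unadjusted p, so that groups apart add little to it. *Alcam*, an adhesion molecule of the immunoglobulin superfamily, was lower in all 3, with an FPKM of 11.95 ± 2.77 in WT and 7.18 ± 1.06 in Npr1+/- aortas (SD, n = 3) and a log2 fold change of -0.73 (edgeR unadjusted p = 0.0109, adjusted p = 0.999). The genes of this list with the highest FPKM, *Mcam*, *Cd99* and *Msn*, had log2 fold changes between -0.13 and -0.08.

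Of 16 tested counter-receptors and partners, 6 had a positive and 10 a negative log2 fold change (median -0.06), and 0 had an unadjusted p under 0.05 from edgeR. The genes of this list with the highest FPKM overlapped between the genotypes. They were *Itgb1*, the beta chain of VLA-4 and of many integrins outside leukocytes, at 377 ± 90.1 in WT aortas (SD, n = 3), *Cd44*, a hyaluronan receptor, at 11.9, and *Sirpa*, the receptor of CD47, at 10.5. Other partners of ICAM-1 and VCAM-1, named here for their role, were lower and also overlapped. *Itgb2*, the beta chain of LFA-1 and Mac-1, had an FPKM of 4.11 ± 1.78 in WT and 2.92 ± 1.06 in Npr1+/- aortas (SD, n = 3), and *Itga4*, the alpha chain of VLA-4, had 1.33 ± 0.214 and 1.32 ± 0.0351 (SD, n = 3). Of the 14 leukocyte markers 9 were tested, and 8 of these had a negative log2 fold change (median -0.14), with a summed FPKM of 166 to 450 in WT and 206 to 304 in Npr1+/- libraries.

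Of the 24 tested genes for cytokines, their receptors and the NF-κB pathway that control adhesion genes, 14 had a positive and 10 a negative log2 fold change (median 0.07). At an unadjusted p under 0.05 from edgeR there was 1, *Nos3*, which is also an endothelial marker, against 2.96% of all tested genes, and 0 were called. *Tnf*, *Il1b* and *Il6*, the classical inducers of endothelial adhesion genes, were at or below an FPKM of 0.52 in each library and were too low to be tested. *Klf2*, a flow-induced endothelial transcription factor known to restrain adhesion genes, had an FPKM of 62.5, 65.5 and 88.7 across WT 1 to 3, against 91.5, 121 and 93.7 across Npr1+/- 1 to 3, without overlap (log2 fold change 0.51, standard error 0.21, edgeR unadjusted p = 0.0515). The gap between 88.7 and 91.5 was smaller than the SD of either genotype (14.3 and 16.5). In this direction 3.9% of all tested genes were without overlap. *Nfkbia*, the NF-κB inhibitor that is itself a target of the pathway, and *Tnfrsf1a*, a TNF receptor, had log2 fold changes of 0.33 and 0.12.

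**Figure D4:**
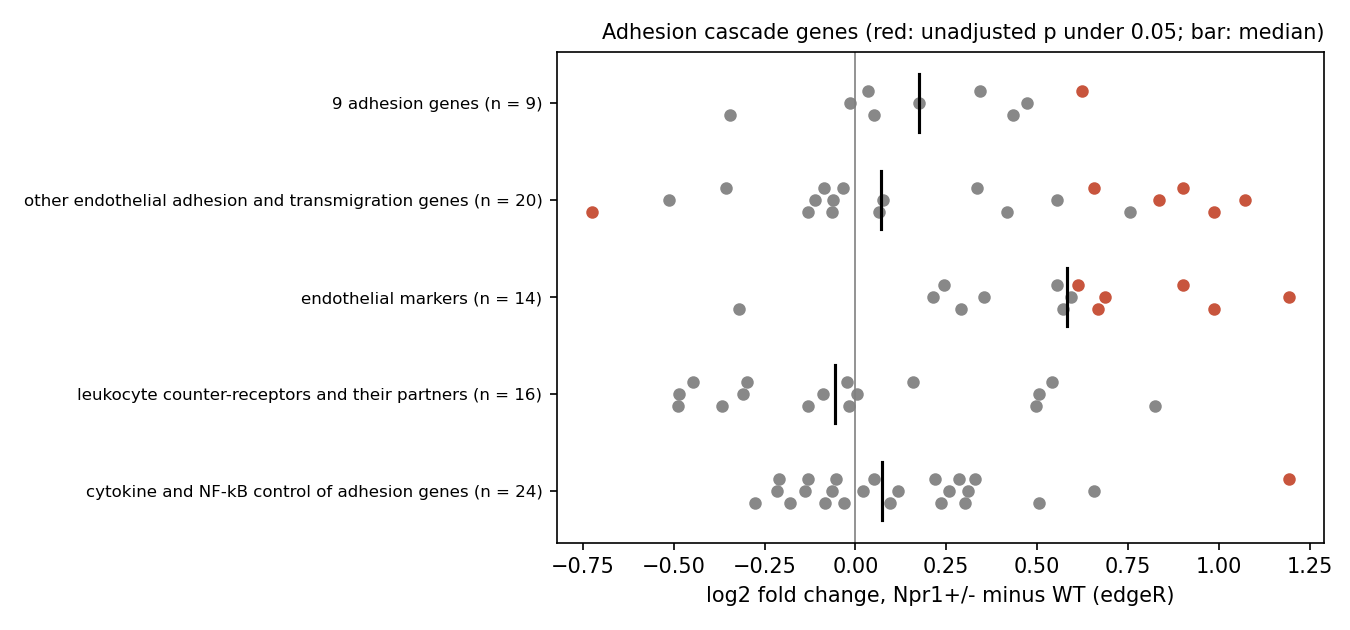
Log2 fold change of Npr1+/- against WT from edgeR for each tested gene of 5 lists, in red at an unadjusted p under 0.05 and with a black bar at the median of the list (height within a row carries no value). The endothelial markers are shifted to higher values (median 0.58), and the 9 adhesion genes have a median of 0.17.

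The marker sums of the other cell types overlapped between the genotypes, but some differed in the same direction within each number. Within every number the Npr1+/- library had the higher fat cell sum (2720 and 3414 in number 1, 431 and 959 in number 2, 586 and 889 in number 3, WT first). With the block 4 of the 6 fat cell markers were higher at an unadjusted p under 0.05 from edgeR, against 7.36% of all tested genes. The smooth muscle sums were lower in each number (8451 and 4905, 14100 and 13318, 14855 and 14097), as were the platelet sums (136 and 99.2, 46.9 and 32.5, 76.0 and 62.7). Numbers 2 and 3 were not told apart by the correlation check, so that their match across genotypes rests on the labels alone. In the platelet sums Npr1+/- 3 (62.7) was above WT 2 (46.9), and in the smooth muscle sums these libraries were at 14097 and 14100. *Icam1* was also higher in each number, as were 17.5% of all tested genes, while 16.9% were lower in each. The fibroblast markers had a summed FPKM of 951 to 1548 in WT and of 916 to 1264 in Npr1+/- libraries, the lymphatic endothelial markers of 16.2 to 47.0 and of 26.6 to 42.9, and the mesothelial and epithelial markers of 5.35 to 9.43 and of 6.69 to 7.71. The Schwann cell markers had 107.5 to 132 in WT and 103 to 197 in Npr1+/- libraries. Every marker in the 10 lists was above 0 in at least 1 library. The part of the cell types in the values of *Icam1* and the other members was not tested.

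**Figure D5:**
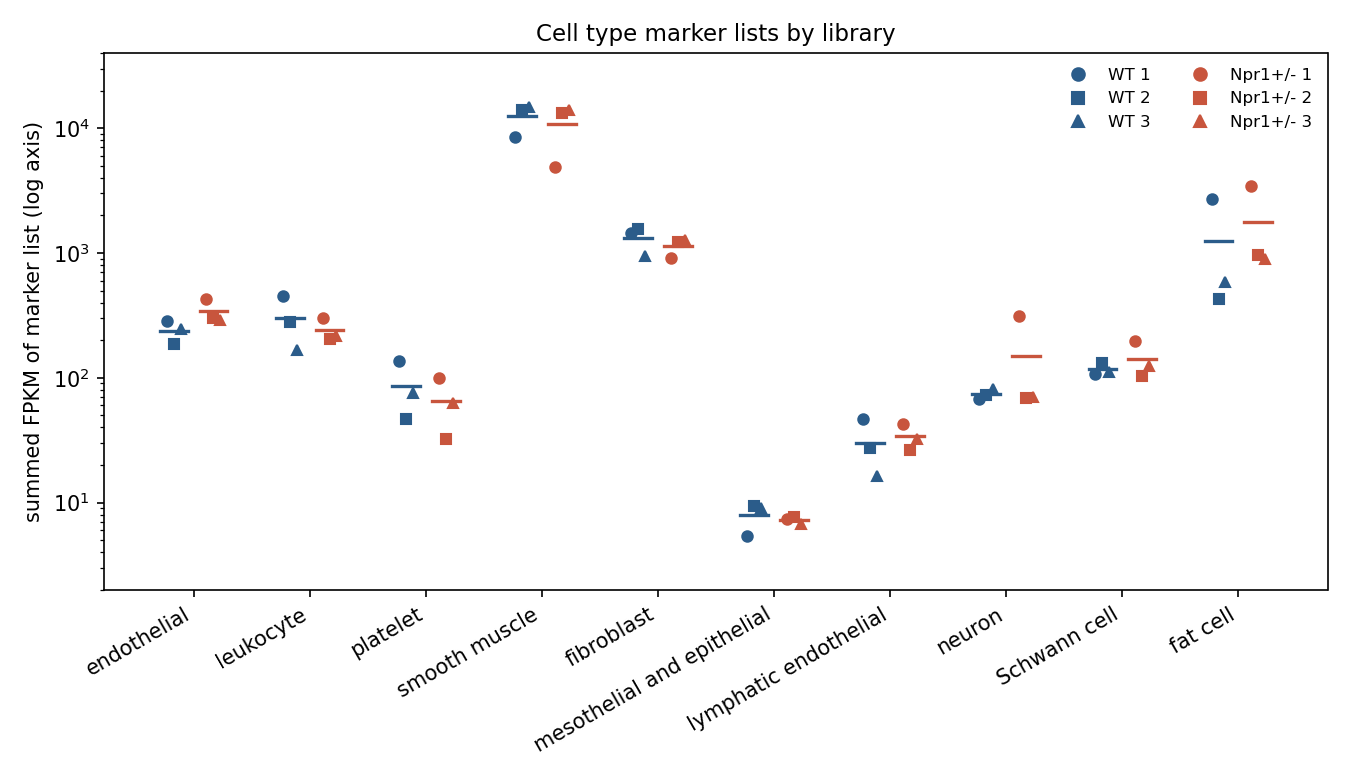
Summed FPKM on a log axis of 10 lists of cell type markers, with 1 point per library and a bar at the mean of each genotype. The endothelial markers are higher in all 3 Npr1+/- libraries, and both libraries numbered 1 are low in smooth muscle and high in fat cell markers.

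The genes with the profile nearest to a member were found by the root mean square difference of centred log2 CPM over the 6 libraries, as a description. For *Icam1*, which itself varied by 0.37 on this measure, they were *Ass1*, *Egfl7* and *Tal1*, at 0.07, 0.10 and 0.10. The reference genes were further from *Icam1*, with *Pecam1* at rank 362 (0.26) and *Cdh5* at rank 2281 (0.34). For *Selp*, which varied by 0.41, they were *Tek*, *Rasgrf2* and *Ptger4*, at 0.13, 0.13 and 0.14. *Pecam1* came next at rank 4, and *Cdh5* was at rank 691 (0.34). For *Vcam1*, which varied by 0.23, they were *4930550C14Rik*, *Pon2* and *Setmar*, at 0.07, 0.09 and 0.10. Of the members themselves, *Jam2* was at rank 82 for *Icam1* (0.20), and *Icam1* and *Vcam1* were at ranks 171 and 221 for *Selp* (0.28 and 0.29) among the 13938 tested genes. For *Vcam1*, *Icam1* was at rank 8342 (0.40).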

How the data were processed

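Reads were filtered by the authors with SOAPnuke, aligned with Bowtie2 to coding gene sequences (mm10 in the submitters' processing notes) and summarised per gene with RSEM. The deposited values are estimated counts, which are not normalized, and FPKM, which RSEM scales by transcript length and library size. The authors' genotype means were not used. Of 18191 genes, 18070 were paired with a symbol from RefSeq on GRCm38.p6, and gene coordinates were taken from GENCODE M21.

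Estimated counts were rounded and tested with R 4.3.3 and edgeR 4.0.16 (TMM, minimum count 10, quasi-likelihood test, Benjamini-Hochberg adjustment over 13938 genes). Calls required an adjusted p below 0.05 together with a log2 fold change of 0.5 or more in size. Depth was 13510970 to 16664343 counts, and 3 counts correspond to 0.18 to 0.222 CPM. Log2 CPM used a prior count of 2, and levels relative to *Pecam1* and *Cdh5* used log2(FPKM + 0.01). Alternatives were DESeq2 1.42.0, its size factors, no filter, limma 3.58.1 on log2(FPKM + 0.1) where the mean FPKM reached 0.1, the replicate block, other endothelial references and each library left out. The scripts were tested on simulated data. Deviations from the genotype means correlated at 0.64, 0.39 and 0.24 between libraries of the same number. The number comes from the labels, which state no pairing, and it was used as a block in an alternative fit. Between different numbers the values ran from -0.58 to 0.44, and those of 0.37 and 0.44 between numbers 2 and 3 show that only number 1 was set apart. The check thus gives no ground for the match of numbers 2 and 3 that the block uses.

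The members and gene lists were chosen with earlier results of these data known. Genes named beside the members were the 3 of each list with the highest FPKM and those at an unadjusted p under 0.05 (at most 5), with exceptions given in the text. No p was adjusted over the members alone.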

Additional observations from a re-analysis of the deposited data

How the results depend on the processing

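No member was called under any alternative run, and the direction of *Icam1*, *Selp*, *F11r*, *Jam2* and *Jam3* was kept under all 12. All genes called went from 0 to 15 with DESeq2 (1 of them, *Nos3*, in the list of cytokine and NF-κB control, where 0 were called otherwise) and to 1 without both libraries numbered 1. Members at an unadjusted p under 0.05 went from 1 to 3 with the replicate block and to 3 without both libraries numbered 1, and ranged from 1 to 2 with each library left out. Members with a negative log2 fold change went from 2 to 1 with the replicate block and to 4 without both libraries numbered 1, and ranged from 1 to 4 with each library left out. The replicate block changed no call. Values near 0 changed sign. *Vcam1* was at 0.0056 with limma and 0.014 with the replicate block, and from -0.18 to 0.20 with each library left out. *Sele* was at -0.17 with limma and from -0.18 to 0.60 with each library left out. *Selplg* was at -0.018 with limma, at -0.054 without both libraries numbered 1 and from -0.29 to 0.25 with each library left out. *Cd99l2* was at -0.036 without both libraries numbered 1 and from -0.0045 to 0.10 with each library left out. Relative to *Pecam1* alone *Icam1* was at -0.037, and its difference relative to *Pecam1* and *Cdh5* ranged from -0.14 to 0.12 with each library left out, that of *Jam2* from -0.39 to 0.038. The cause of these changes was not tested. *Sele* had the fewest counts of the members, at 6.03 to 28.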
